A study of Mus musculus with 6 samples.

Results

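The 47 genes described here encode the machinery that copies DNA in S phase: origin licensing factors, the replicative helicase and its activators, polymerases, the sliding clamp and its loader, Okazaki fragment enzymes, nucleotide supply and the factors that restore chromatin and DNA methylation behind the fork. They were picked by gene name from that list of roles, and all 47 were found among the 31617 genes of the deposited table. Of the 47, 44 were among the 10000 genes with the highest mean normalised read count over the 6 libraries, called expressed genes here, and Orc1, Pole and Fen1 were not. RNA was sequenced from pancreatic macrophages of wild-type Balb/c mice, sorted as CD45+CD11b+F4/80+ leukocytes. The caerulein groups were taken on days 1, 3, 4, 5 and 7 counted from the first of 10 hourly caerulein injections, and mock mice, injected with saline per the design text, were day 0. Caerulein is a peptide that acts like cholecystokinin and overstimulates acinar cells, which gives acute pancreatitis. The labels write the model as RAP without spelling it out, give the treatment of the mock sample as none and give no age; day 4 is named in its sample's labels but not in the design text. Each day is represented by 1 library, made from a pool of more than 3 mice. Differences between days therefore carry no replicate check, and none of them tests the treatment.

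Replication runs in steps. Origins are licensed in G1, when ORC, Cdc6 and Cdt1 load the MCM2-7 helicase ring onto DNA, and geminin (Gmnn) blocks Cdt1 from S phase on so that no origin is licensed again. Cdc45, Mcm10 and the GINS complex then turn the ring into a moving helicase, DNA polymerase alpha-primase lays down primers, and polymerases delta and epsilon extend them on the PCNA clamp loaded by RFC. Many of these genes are transcribed through E2F factors at the end of G1, and tissue macrophages are known to be able to divide in place as well as to be replaced from blood monocytes.

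The day 3 library held the highest value of every expressed member. All 44 were higher on day 3 than in any other library, against 19.4% of the 10000 expressed genes. With libraries scaled to equal totals it was 40 of the 44, against 20.0% of expressed genes. Summed over the 47 genes, normalised read counts were 29093 in mock, 17742 at day 1, 53112 at day 3, 14519 at day 4, 16387 at day 5 and 16776 at day 7. The sum was thus highest on day 3, next highest in mock and lower in the other 4 libraries. In RNA of sorted pools, more cells in S phase, more RNA of these genes per cell and RNA of other cells cannot be told apart. Summed fibroblast markers were also highest on day 3, at 15691 against 3072 in mock, as were duct cell and erythroid markers. T, NK and B cell markers were lowest there. The lowest library was day 4 for 21 of the 44, day 7 for 11, day 1 for 8 and day 5 for 4; with libraries scaled to equal totals day 7 was lowest for 7, Gins2 and Rnaseh2b then being lowest on day 5, Pold3 on day 4 and Rfc1 on day 1. The log2 range over the 6 libraries, taken on normalised read counts with a pseudocount of 17.8, had a median of 2.09 over the 44 members and of 1.07 over all expressed genes. It ran between 0.58 for Pold3 and 4.60 for Tk1.

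**Figure D1:**
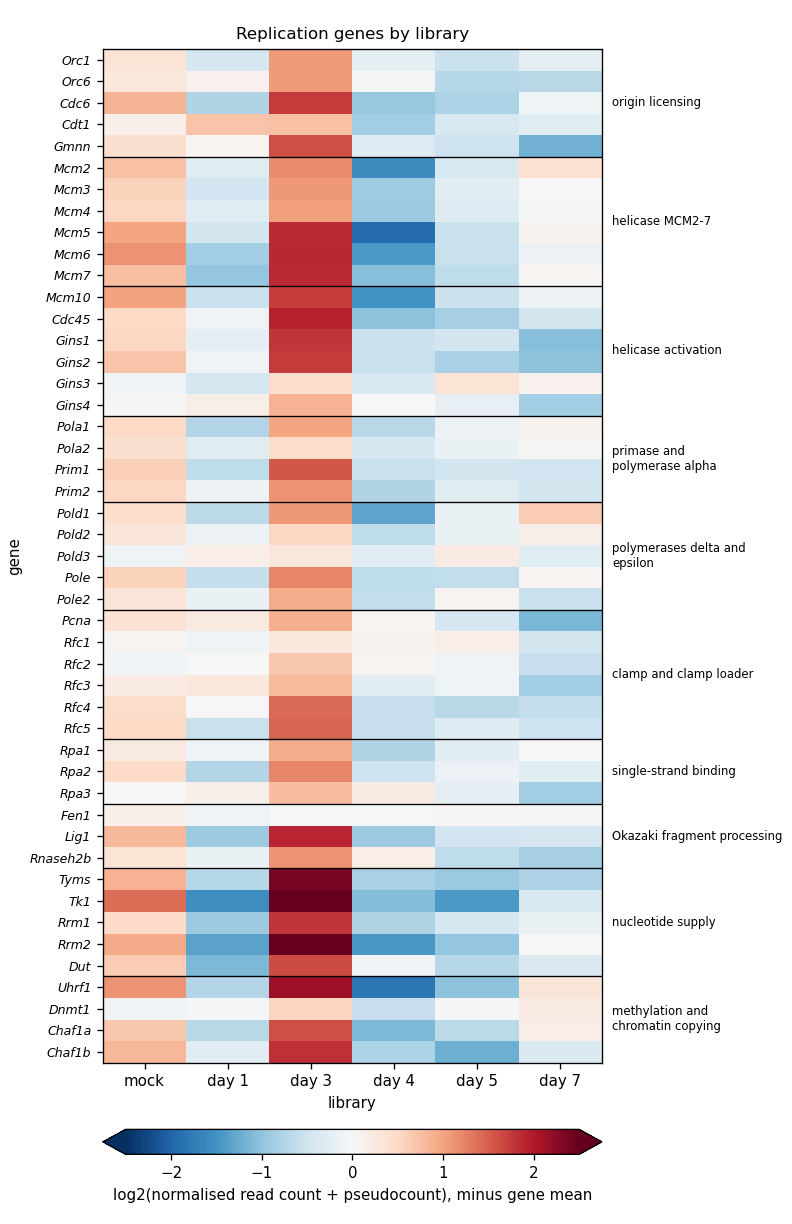
Level of each of the 47 genes (rows, grouped by role) in the 6 libraries (columns), as log2 of the normalised read count plus pseudocount minus the gene's own mean; red is above and blue below that mean, and the darkest colours also stand for values past the ends of the scale. The day 3 column is the reddest for all genes but Fen1, and Tk1, Rrm2 and Uhrf1 span the widest ranges.

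At 2-fold, the members parted from mock in 1 direction on each day. On day 3, 12 of the 44 exceeded their mock value at least 2-fold, as 3.73% of expressed genes did, and 0 lay 2-fold below it (5.71% of expressed genes). The 12 were Gmnn, Mcm7, Cdc45, Gins1, Gins2, Lig1, Tyms, Tk1, Rrm1, Rrm2, Dut and Uhrf1, of which Rrm2 had the largest log2 ratio, 1.85. The median log2 ratio was 0.79 for the members and 0.08 for all expressed genes. With totals equalised after leaving out acinar, erythroid and mitochondrial-genome genes, the count was 7 in place of 12, beside 2.58% of expressed genes. On day 1, 21 lay at least 2-fold below mock (9.58% of expressed genes) and 0 above it (6.68%), with a median of -0.81 beside 0.15 for all genes. On day 4 it was 26 lower (8.11%) and 0 higher (3.31%), with a median of -1.11 beside -0.01. On day 5 it was 18 lower (6.4%) and 0 higher (3.68%), median -0.92 beside 0.12, and on day 7 it was 15 lower (6.57%) and 0 higher (1.96%), median -0.89 beside -0.11. The day 7 count was 6 in place of 15 when libraries were scaled to equal totals, beside 2.96% of expressed genes. All 5 comparisons share the 1 mock library.

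The largest steps were those into and out of day 3. From day 1 to day 3, 31 of the 44 were at least 2-fold higher on day 3 (9.72% of expressed genes) and 0 lower (8.21%), with a median log2 ratio of 1.65 beside -0.08 for all genes. From day 3 to day 4, 35 were at least 2-fold lower on day 4 (5.89%) and 0 higher (3.23%), with a median of -1.97 beside -0.08. Day 5 against day 4 had 3 at least 2-fold higher (5.4%), Mcm2, Mcm5 and Pold1 with log2 ratios of 1.19, 1.37 and 1.16, and 0 lower (3.11%). Day 7 against day 5 had 2 higher (5.07%), Tk1 at 1.05 and Uhrf1 at 1.34, and 0 lower (4.68%). With libraries scaled to equal totals 10 were higher, as 8.39% of expressed genes were.

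**Figure D2:**
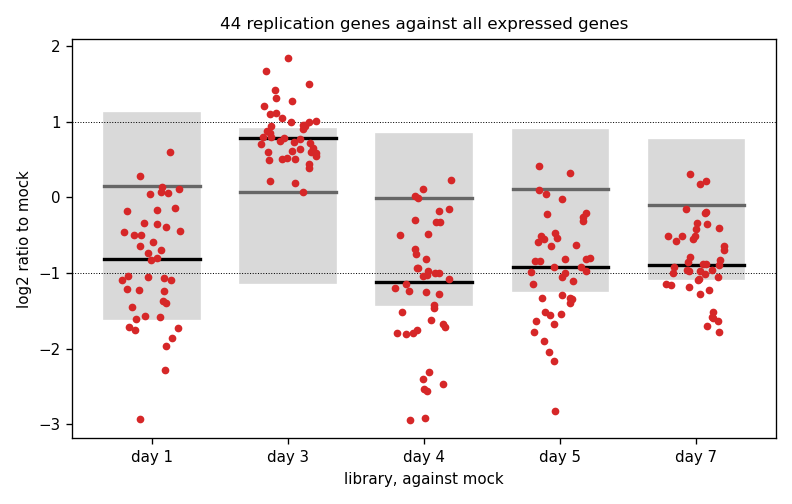
Log2 ratio to mock of the 44 expressed members on each day (red points, black bar at their median), over the 5th to 95th percentile (grey box) and median (grey bar) of the 10000 expressed genes; dotted lines mark 2-fold. The member medians are -0.81, 0.79, -1.11, -0.92 and -0.89 on days 1, 3, 4, 5 and 7.

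The promoters of these genes were searched for words that E2F factors are known to bind. The genes were picked by role, and a link between these words and the values was not tested. RefSeq windows of 300 bases (GRCm38.p6), 250 before to 50 after a start site, were given for 38 of the 47 members, with several windows for some. TTTCCCGC, TTTCGCGC, TTTGGCGC or TTTGCCGC, on either strand, stood in a window of 16 of the 38 members (42.1%), beside 2.61% of 27025 genes with a window and 4.84% of the 7658 of them that were expressed. The 16 are Cdc6, Cdt1, Dnmt1, Gins3, Lig1, Mcm3, Mcm5, Mcm6, Mcm7, Orc1, Pola1, Pold1, Pold3, Pole2, Rfc3 and Uhrf1. The cell cycle homology word TTTGAA, known from genes of mitosis, stood in 6 of the 38 (15.8%) and in 13 of 18 genes of a mitosis list (72.2%), which held the E2F words in 1 of 18; TTTGAA was in 20.2% of all genes. The CCAAT box stood in 24 of the 38 (63.2%), beside 41.1% of all genes, and words of different kinds may overlap in a sequence. The log2 range over the 6 libraries had a median of 1.97 over the 15 expressed members with E2F words and of 2.19 over the 21 without. The bases before the start site are shown for 4 members in which an E2F word lies upstream and whose values spread widely, and for Rrm2, which spread as widely with none in its window; capitals mark E2F words, and in Rrm2 the CCAAT box.
Mcm5 (chr8:75109259-75109508, + strand): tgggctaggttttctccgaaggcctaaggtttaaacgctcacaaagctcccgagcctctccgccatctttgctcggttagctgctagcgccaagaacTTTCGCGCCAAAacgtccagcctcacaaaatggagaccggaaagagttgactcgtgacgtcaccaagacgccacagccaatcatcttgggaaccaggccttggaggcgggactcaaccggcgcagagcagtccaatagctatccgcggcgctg
Mcm6 (chr1:128359706-128359955, - strand): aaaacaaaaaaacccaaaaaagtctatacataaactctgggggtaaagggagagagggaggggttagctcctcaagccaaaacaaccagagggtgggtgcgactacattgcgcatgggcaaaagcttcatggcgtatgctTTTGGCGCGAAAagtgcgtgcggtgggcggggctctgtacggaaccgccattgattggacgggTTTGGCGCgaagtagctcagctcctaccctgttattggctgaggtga
Cdc6 (chr11:98907901-98908150, + strand): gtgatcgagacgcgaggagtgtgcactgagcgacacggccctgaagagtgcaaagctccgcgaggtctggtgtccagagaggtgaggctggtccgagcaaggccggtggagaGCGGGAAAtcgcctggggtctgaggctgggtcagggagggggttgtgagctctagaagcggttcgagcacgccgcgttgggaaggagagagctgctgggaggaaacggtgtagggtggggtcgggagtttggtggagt
Uhrf1 (chr17:56304063-56304312, + strand): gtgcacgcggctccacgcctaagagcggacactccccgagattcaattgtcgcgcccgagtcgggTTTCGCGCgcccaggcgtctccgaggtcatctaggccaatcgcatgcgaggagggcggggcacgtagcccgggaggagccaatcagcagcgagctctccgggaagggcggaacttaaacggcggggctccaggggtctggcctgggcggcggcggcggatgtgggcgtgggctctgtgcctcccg
Rrm2 (chr12:24708004-24708253, + strand): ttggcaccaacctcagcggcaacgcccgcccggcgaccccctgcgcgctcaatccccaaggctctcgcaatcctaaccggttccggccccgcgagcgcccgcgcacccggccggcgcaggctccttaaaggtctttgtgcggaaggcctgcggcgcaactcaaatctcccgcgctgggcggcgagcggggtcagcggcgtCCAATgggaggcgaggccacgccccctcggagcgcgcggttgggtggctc
In Mcm5 the word TTTCGCGC and one on the other strand overlap, 153 and 149 bases upstream, and Mcm6 has such an overlapping pair 110 and 106 bases upstream and another word at 47. The word lies 138 bases upstream in Cdc6 and 185 in Uhrf1. A word is a match of letters, not a site shown to be bound.

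Among the licensing factors, the loader gene Cdc6 had normalised read counts of 209 in mock, 56.6 at day 1, 406 at day 3, 47.9 at day 4, 55.1 at day 5 and 98.8 at day 7. It was high in mock and on day 3 and low in the other 4 libraries. Gmnn, the gene of the licensing inhibitor geminin, had the widest log2 range of the 5 with the pseudocount, 2.81 against 2.69 for Cdc6. Without it Cdc6 spread more, its highest value being 8.47 times its lowest, against 7.63 times for Gmnn. Gmnn had 545 in mock, 422 at day 1, 1288 at day 3, 317 at day 4, 281 at day 5 and 169 at day 7. Its low point was thus day 7, not day 4. Cdt1, which geminin holds in check, had 495 in mock, 757 at day 1, 760 at day 3, 239 at day 4, 337 at day 5 and 366 at day 7. Day 1 came closer to day 3 in Cdt1 than in any other expressed member: the log2 ratio without pseudocount of day 3 to day 1 was 0.01, with a 95% counting interval of -0.14 to 0.15. Orc6, an origin recognition subunit, ran between 121 on day 5 and 456 on day 3. Orc1, the largest subunit of the same complex, was low throughout, with 39.2 in mock, 16.0 at day 1, 76.8 at day 3, 20.7 at day 4, 13.5 at day 5 and 21.1 at day 7. Both origin recognition genes were highest on day 3. Both had their lowest value on day 5, but counting error does not set that day apart. For Orc6 the log2 ratio of day 7 to day 5 had a 95% counting interval of -0.34 to 0.39. Orc1 had 13 reads on day 5 and 13 on day 1.

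The ratio of Cdt1 to Gmnn reads within a library does not depend on how libraries are scaled. It was 0.907 in mock (95% counting interval 0.804 to 1.02), 1.79 at day 1 (1.57 to 2.05), 0.590 at day 3 (0.547 to 0.636), 0.755 at day 4 (0.620 to 0.918), 1.20 at day 5 (1.02 to 1.42) and 2.17 at day 7 (1.83 to 2.57). The ratio was highest on days 7 and 1 and lowest on day 3. The Cdt1 transcript is the longer one, at 2189 bases against 1127 for Gmnn, so the side of 1 on which the ratio falls depends on length: per kilobase of transcript Gmnn lay above Cdt1 in all libraries but day 7. All counting intervals here leave out every other source of error, as PCR copies of a molecule cannot be told from separate molecules.

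**Figure D3:**
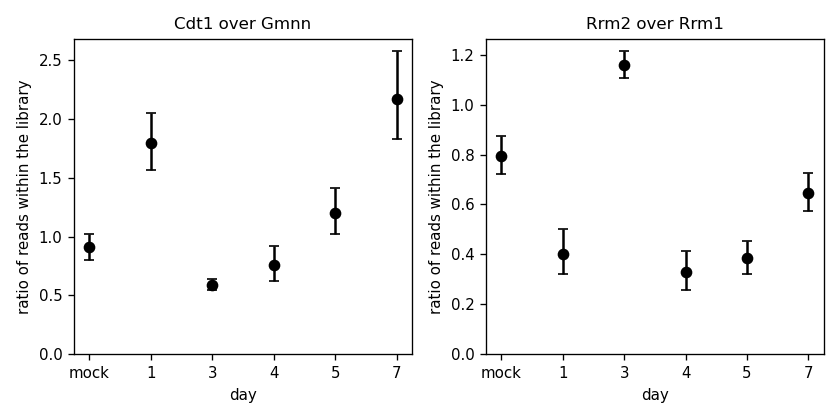
Ratio of Cdt1 to Gmnn reads (left) and of Rrm2 to Rrm1 reads (right) within each library; points are the 1 library of each day and bars the 95% counting interval. Cdt1 over Gmnn is highest on days 7 (2.17) and 1 (1.79), where Rrm2 over Rrm1 is 0.647 and 0.403, and lowest on day 3 (0.590), where Rrm2 over Rrm1 is at its highest (1.16).

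The 6 genes of the MCM2-7 helicase ring were all highest on day 3 and lowest on day 4. Mcm5 had 1337 in mock, 479 at day 1, 2462 at day 3, 162 at day 4, 446 at day 5 and 709 at day 7. Day 4 was lower than day 3 by a log2 ratio without pseudocount of -3.93 for Mcm5, with a 95% counting interval of -4.20 to -3.67. The library after the highest one was thus the lowest. Mcm6 had 1939 in mock, 482 at day 1, 3330.0 at day 3, 314 at day 4, 593 at day 5 and 792 at day 7. Mcm2 had 945 in mock, 453 at day 1, 1297 at day 3, 177 at day 4, 428 at day 5 and 742 at day 7. The course of these 3 was the same: high in mock, low at day 1, highest at day 3, lowest at day 4, then higher again on days 5 and 7. Mcm7 had 1037 in mock, 305 at day 1, 2272 at day 3, 285 at day 4, 385 at day 5 and 636 at day 7. Mcm3 had 1208 in mock, 576 at day 1, 1726 at day 3, 428 at day 4, 668 at day 5 and 802 at day 7. Mcm4 had 919 in mock, 509 at day 1, 1328 at day 3, 331 at day 4, 504 at day 5 and 624 at day 7. Mcm3 and Mcm4 kept the course with the smallest spread of the 6, log2 ranges of 1.97 and 1.95 against 3.79 for Mcm5. On day 7 all 6 were still below mock, by log2 ratios between -1.27 for Mcm6 and -0.34 for Mcm2. Normalised read counts of all genes totalled 1.38e+07 at day 7 against 1.68e+07 in mock. The size of these ratios therefore depends on how libraries are scaled.

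**Figure D4:**
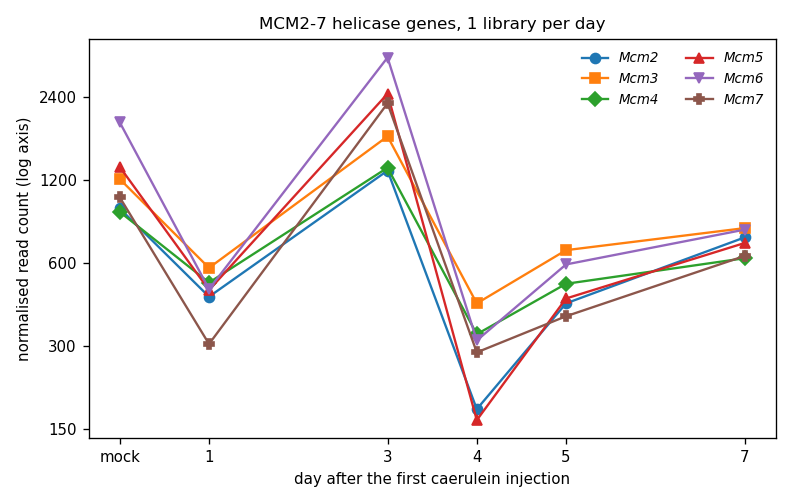
Normalised read count (log axis) of the 6 MCM2-7 genes against day, with 1 library per point. The lines part most on day 4, where Mcm5 (162) and Mcm2 (177) lie below the other 4 (285 to 428).

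The ring holds 1 copy of each subunit, so levels were also set per kilobase of the longest protein-coding transcript in GENCODE M21. On that scale the highest of the 6 genes was 1.74 times the lowest in mock, 1.84 times at day 1, 2.07 times at day 3, 2.95 times at day 4, 1.73 times at day 5 and 1.52 times at day 7. The extremes on day 4 were Mcm3 with 141 and Mcm5 with 47.8 normalised reads per kilobase, and on day 3 Mcm7 with 767 and Mcm4 with 370. The transcript lengths come from an annotation that may differ from the one used for counting.

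Of the helicase activators, Mcm10 had the widest range, with 243 in mock, 70.1 at day 1, 409 at day 3, 27.2 at day 4, 70.7 at day 5 and 99.7 at day 7. Cdc45, which joins the ring at origin firing, had 174 in mock, 110 at day 1, 495 at day 3, 49.2 at day 4, 58.2 at day 5 and 81.1 at day 7. Both were highest on day 3 and lowest on day 4. Gins1 and Gins2, subunits of the GINS complex, were 2-fold higher than mock on day 3 (log2 ratios 1.28 and 1.05) and lowest on day 7, at 50.7 and 141. The other 2 GINS genes spread less. Gins3 had the narrowest range of this group, with 95.5 in mock, 68.9 at day 1, 143 at day 3, 72.5 at day 4, 133 at day 5 and 110 at day 7. Gins4 was between 444 on day 7 and 1508 on day 3. For Gins2, 67.3% of exon bases are shared with Gse1 on the opposite strand in GENCODE M21. No source used here says whether counting was by strand, so its value is uncertain.

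The primase gene Prim1 had 357 in mock, 142 at day 1, 708 at day 3, 151 at day 4, 163 at day 5 and 160 at day 7. It was highest on day 3, and days 1, 4, 5 and 7 lay close together below mock. Pola2, the regulatory subunit of polymerase alpha, had 719 in mock, 436 at day 1, 758 at day 3, 401 at day 4, 484 at day 5 and 557 at day 7. Its day 3 value exceeded mock by a log2 ratio of only 0.07, the smallest of the 44. The counting interval of the ratio without pseudocount, -0.06 to 0.21, held 0. Pold1, the catalytic subunit of polymerase delta, had 483 in mock, 218 at day 1, 767 at day 3, 131 at day 4, 314 at day 5 and 563 at day 7, so that day 7 was above mock. Pold3, an accessory subunit of the same enzyme, had 811 in mock, 989 at day 1, 1071 at day 3, 726 at day 4, 1018 at day 5 and 709 at day 7. That was the flattest course of the expressed members. Pole, the catalytic subunit of polymerase epsilon and below the expressed genes, was between 27.2 at day 4 and 145 at day 3, and its subunit gene Pole2 between 81.5 at day 4 and 271 at day 3.

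Pcna, the gene of the sliding clamp, had 2696 in mock, 2435 at day 1, 3953 at day 3, 2187 at day 4, 1544 at day 5 and 933 at day 7. It was close to mock on days 1 and 4, with log2 ratios without pseudocount of -0.15 and -0.30, and lowest on day 7, at -1.53 with a 95% counting interval of -1.63 to -1.43. Reads of Pcna over those of Mcm2 were 2.85 in mock (95% counting interval 2.65 to 3.07), 5.38 at day 1 (4.81 to 6.03), 3.05 at day 3 (2.89 to 3.22), 12.3 at day 4 (10.4 to 14.8), 3.60 at day 5 (3.23 to 4.03) and 1.26 at day 7 (1.15 to 1.38). The ratio of these genes thus differed most between days 4 and 7. Of the clamp loader genes, Rfc4 had 310 in mock, 222 at day 1, 621 at day 3, 144 at day 4, 130.0 at day 5 and 140.2 at day 7. It was low on days 4, 5 and 7 alike. Rfc1, the largest loader subunit, had 724 in mock, 641 at day 1, 831 at day 3, 735 at day 4, 774 at day 5 and 501 at day 7. Rfc1 differed from mock by log2 ratios between -0.52 and 0.19 over the 5 days, and its log2 range of 0.71 was the smallest of the expressed members after Pold3. Pcna has 2 annotated pseudogenes and Tyms 1, and no source used here says how shared reads were counted.

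Of the single-strand binding genes, Rpa2 had 714 in mock, 298 at day 1, 1207 at day 3, 348 at day 4, 457 at day 5 and 408 at day 7. Rpa3, the small subunit of the same trimer, had 224 in mock, 250 at day 1, 402 at day 3, 265 at day 4, 192 at day 5 and 116 at day 7. Rpa2 was lowest on day 1 and Rpa3 on day 7. Lig1, the ligase that seals Okazaki fragments, had 536 in mock, 150.1 at day 1, 1173 at day 3, 151 at day 4, 208 at day 5 and 219 at day 7. It was high on day 3 and in mock only. Rnaseh2b, a subunit of the enzyme that removes ribonucleotides from DNA, was between 159 on day 7 and 665 on day 3. Fen1, the flap endonuclease gene, had 5 reads in mock, 1 at day 1, 4 at day 3, 2 at day 4, 3 at day 5 and 3 at day 7, at or near a floor of 3 reads. Fen1 is the only one of the 47 not highest on day 3. In GENCODE M21, 78.8% of its exon bases are shared with Gm10143 on the opposite strand, so its value is uncertain as well.

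Of the roles, nucleotide supply had the widest log2 range at the median of its genes, 3.29, and Tk1 and Rrm2 had the widest of all expressed members. Tk1, the thymidine kinase of the salvage route, had 794 in mock, 88.6 at day 1, 2564 at day 3, 129 at day 4, 96.7 at day 5 and 220 at day 7. Mock and day 3 stood well above the other 4 libraries. Day 3 was 28.9 times day 1 in Tk1, a log2 ratio without pseudocount of 4.85 with a 95% counting interval of 4.52 to 5.21. Rrm2, the regulated subunit of ribonucleotide reductase, had 769 in mock, 144 at day 1, 2818 at day 3, 131 at day 4, 192 at day 5 and 396 at day 7. Rrm1, the large subunit, had 967 in mock, 357 at day 1, 2431 at day 3, 399 at day 4, 501 at day 5 and 612 at day 7. Both reductase genes were highest on day 3, and next highest in mock. All 5 genes of this group were at least 2-fold higher than mock at day 3, as 3.73% of expressed genes were. All 5 were at least 2-fold lower at day 1, as 9.58% of expressed genes were. Of these Dut, which clears dUTP, was the nearest to the threshold at day 3, at a log2 ratio of 1.00. The thymidylate synthase gene Tyms stayed low late, between 130.0 and 146 on days 4, 5 and 7, against 491 in mock. Rrm2 reads were 0.795 times those of Rrm1 in mock (95% counting interval 0.724 to 0.873), 0.403 at day 1 (0.323 to 0.502), 1.16 at day 3 (1.11 to 1.21), 0.328 at day 4 (0.259 to 0.412), 0.384 at day 5 (0.322 to 0.456) and 0.647 at day 7 (0.575 to 0.728). The ratio was highest on day 3 and next highest in mock. The transcripts differ in length, so whether it lies above 1 does not say which gene had the higher level; per kilobase of transcript Rrm2 lay above Rrm1 on days 3 and 7 and in mock.

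Uhrf1, which reads hemimethylated DNA and brings the maintenance methyltransferase to it, had 448 in mock, 111 at day 1, 920 at day 3, 42.7 at day 4, 86.3 at day 5 and 245 at day 7. Dnmt1, that methyltransferase, had 650.3 in mock, 682 at day 1, 1025 at day 3, 462 at day 4, 671 at day 5 and 809 at day 7. Uhrf1 spread over a log2 range of 3.96 and Dnmt1 over 1.12. Reads of Uhrf1 over those of Dnmt1 were 0.689 in mock (95% counting interval 0.611 to 0.776), 0.162 at day 1 (0.129 to 0.203), 0.897 at day 3 (0.832 to 0.967), 0.0924 at day 4 (0.0627 to 0.132), 0.129 at day 5 (0.101 to 0.162) and 0.303 at day 7 (0.265 to 0.346). The histone chaperone genes Chaf1a and Chaf1b, which load new histones behind the fork, were highest on day 3 at 308 and 632. Chaf1a was lowest on day 4 at 31.1 and Chaf1b on day 5 at 61.4. For Chaf1a, 52.5% of exon bases are shared with Ubxn6 on the opposite strand, so its value is uncertain.

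Most other genes of replication lay within 2-fold of mock on day 3, where 3.73% of all expressed genes lay at least 2-fold above it and 5.71% below it. Of 36 expressed genes of other origin and fork factors, 5 lay at least 2-fold above mock and 0 below it at day 3 (median log2 ratio 0.44), and 16 were at least 2-fold lower (5.89% of expressed genes) and 0 higher (3.23%) at day 4 than at day 3. Among the highest at day 3 were the gene of the PCNA-associated factor Pclaf, listed as 2810417H13Rik, at 2.33, the histone chaperone gene Asf1b at 1.64 and Chtf18, of an alternative clamp loader, at 1.30. Of 22 other nucleotide metabolism genes 3 lay at least 2-fold above mock on day 3 and 0 below (median log2 ratio 0.24), among them Dctpp1 at 1.34 and Dtymk at 1.11, and Nme1 was at 0.68. Of 17 S phase control genes (median log2 ratio 0.54) 3 were at least 2-fold higher on day 3, Mybl2 at 1.27, cyclin E1 (Ccne1) at 1.27 and Fbxo5 at 1.14, and 1, Myc, was lower at -1.10. Of 10 inhibitors of S phase (median log2 ratio 0.02), the kinase inhibitor gene Cdkn2c was higher at 1.97 and Samhd1, whose enzyme breaks down deoxynucleotides, was lower at -1.18; Btg2 was at -0.68 and Wee1 at 0.68. Samhd1 had 11607 in mock, 16993 at day 1, 5115 at day 3, 6856 at day 4, 10741 at day 5 and 6061 at day 7. Its lowest library was day 3, as for 15.6% of expressed genes, and a link to the members was not tested. A list of 22 mitosis genes, all expressed and led at day 3 by Ccnb1 at 2.21, Cdk1 at 2.04, Birc5 at 1.92 and Aurka at 1.91, had median log2 ratios against mock of -2.68 at day 1, 1.56 at day 3, -1.98 at day 4, -2.03 at day 5 and -1.01 at day 7. Those were farther from 0 than the members' medians on each day.

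Markers of other cells differed between the same libraries. The 8 fibroblast markers summed to 3072 normalised reads in mock, 517 at day 1, 15691 at day 3, 798 at day 4, 2044 at day 5 and 8418 at day 7, none of them at 0 in any library, and of the 6 expressed ones 5 were at least 2-fold higher than mock at day 3. The 7 duct cell markers summed to 662 in mock, 1151 at day 1, 3769 at day 3, 630.1 at day 4, 248 at day 5 and 1356 at day 7, with none at 0. The 6 erythroid markers found, of 8 on the list, summed to 1719.9 in mock, 129 at day 1, 3612 at day 3, 321 at day 4, 36.4 at day 5 and 1263 at day 7, with Hbb-bt at 0 on days 1 and 5. These 3 lists were highest on day 3, as the members were; their part in the members' values was not tested. Lymphocyte markers did not share that course: the 10 T and NK cell markers summed to 466 on day 3, against 4074 in mock, and the 7 B cell markers to 693 on day 3, against 6332 in mock. Day 3 was their lowest library, with none at 0. Of the other lists, the 8 acinar markers summed to 584497 in mock and 675960 at day 7. On days 1, 3, 4 and 5 they summed to 51850, 91174, 29891 and 27649. Mock, the reference of each comparison above, thus lay near day 7 in these markers. Their part in the members' ratios to mock was not tested. Sums ran between 458 at day 5 and 10948 at day 4 for 9 neutrophil markers (Elane at 0 at day 5). For 5 endothelial markers they ran between 190.2 at day 4 and 1524 at day 1. For 7 dendritic cell markers they ran between 1062 at day 1 and 8094 at day 7. Retnlg alone gave 9911 of the day 4 neutrophil sum, and Kdr 1320 of the day 1 endothelial sum. Of the 5 expressed neutrophil markers, 4 were at least 2-fold lower than mock at day 4 (8.11% of expressed genes) and 1 higher (3.31%). Pecam1, the other expressed endothelial marker, was below mock at day 1 by a log2 ratio of -0.87. The 10 macrophage markers, all among the expressed genes, summed to between 407715 at day 7 and 1373870 at day 4, with 844995 at day 3, against 762370 in mock, and none at 0. Lyz2 alone gave 1241210 of the day 4 sum. The median log2 ratio to mock of these 10 markers was 0.58 at day 1, 0.12 at day 3 and 0.42 at day 4. It was 0.77 at day 5 and -0.53 at day 7. Of the genes of the sorted proteins, Itgam, that of CD11b, was at -1.46 on day 4 and -1.44 on day 5. Adgre1 was at -0.03 on day 4 and 1.01 on day 5, and Ptprc at -0.33 and -0.06.

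**Figure D5:**
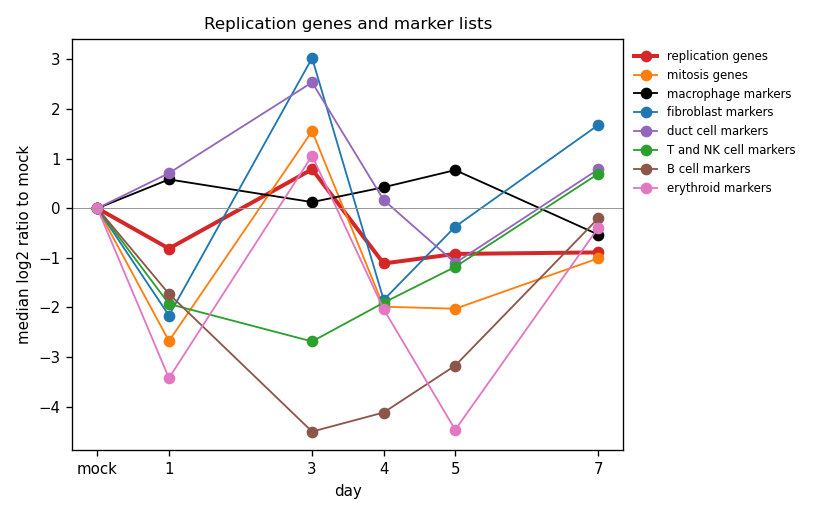
Median log2 ratio to mock of the 44 expressed members (thick red line) and of marker lists against day, mock being 0. The members, mitosis, fibroblast, duct cell and erythroid lists all peak on day 3 (0.79, 1.56, 3.03, 2.54 and 1.06), where T and NK cell markers are at -2.69 and B cell markers at -4.50.

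A count test was also run on the whole reads recovered from the deposited values. With edgeR's quasi-likelihood test of the 5 caerulein libraries against mock, which takes libraries of different days as replicates, 0 of 14106 genes were called (0% of those tested) at an adjusted p below 0.05, 102 had an unadjusted p below 0.05, and DESeq2 called 2. In the edgeR fit the log2 ratios of caerulein to mock of the 46 members tested lay between -0.88 for Mcm10 and 0.13 for Dnmt1. Mock is 1 library, so its own spread did not enter the test. That test asks for a shift common to all 5 days.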

How the data were processed

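Gene expression was measured by RNA sequencing in 6 libraries, 1 for mock and 1 for each of days 1, 3, 4, 5 and 7, grouped by their sample titles. The deposited signal is a normalised read count per gene, as the authors deposited it. Per the submitters' processing notes, tools include Bowtie 0.12.2 and builds include mm8, with no role stated. No source used here names the counter, the annotation or the normalisation method. In each column 100% of values were whole multiples of 1 step within 0.01, so whole reads were recovered. Libraries held between 14853084 reads on day 4 and 25726455 on day 3, and 3 reads were worth between 2.11 and 3.88 normalised units.

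Log2 ratios used a pseudocount of 17.8, the mean column total divided by 1000000. It understates ratios of low genes. Counts at 2-fold are over the 10000 genes with the highest mean, a cutoff at 74.1. Counting intervals are 95% Clopper-Pearson intervals of 2 read counts. On the log2 scale they reached 0.23 to either side at the median over members and comparisons, and 0.76 at most over the 44 expressed members. Values are given in every library for Mcm2 to Mcm7 and for the widest and narrowest member of each other role; further members and the paired ratios were chosen after their values were seen, and of each other list up to 4 with the largest ratio on day 3 are named; some genes of these lists are not reported here. The members and lists were chosen with earlier results of these data known. edgeR 4.0.16 and DESeq2 1.42.0 (R 4.3.3) were run on genes with at least 60 reads, the edgeR step and the ratios having been tested on simulated data; matplotlib 3.10.9, scipy 1.17.1, pandas 2.3.3 and numpy 2.4.6 ran under Python 3.11.15. No protein sequences were used here.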

Additional observations from a re-analysis of the deposited data

How the results depend on the processing

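Another pseudocount (1 normalised unit, or 4 times the main one), scaling to equal totals (all genes, or without acinar, erythroid and mitochondrial-genome genes), centring on the median expressed gene, quantile normalisation, the 6000 highest genes, no filter, and the mean in place of the median were tried. None turned the direction of a member past 2-fold. The 6000 highest genes hold only 26 members, so counts were smaller by construction: 26 highest on day 3, 13, 15, 9 and 9 lower than mock on days 1, 4, 5 and 7, 17 higher on day 3 than on day 1, 20 lower on day 4 than on day 3 and 1 higher on day 7 than on day 5. The count of members highest on day 3, and its alternatives, were chosen after seeing the data. With scaling to equal totals this count was 40 with all genes (20.0% of expressed genes) and 39 without the 3 gene groups (19.1%). Members lowest on day 7 were 7 with equal totals, in place of 11, a count also added after seeing the data. Scaling moved the day 7 counts. Members lower than mock were 8 with the larger pseudocount (4.67% of expressed genes) and 6 with either equal-total scaling (2.96% with all genes, 2.78% without the 3 gene groups). In these 2 scalings the median was -0.63 with all genes and -0.62 without the 3 gene groups. Members higher on day 7 than on day 5 were 5 with the small pseudocount (5.75% of expressed genes) and 1 with the larger (3.66%). They were 5 with centring (6.24%) and 5 with quantile normalisation (5.57%). With either equal-total scaling they were 10 (8.39% and 9.35%), with medians of 0.58 and 0.64. Without the 3 gene groups the day 1 median was -1.10, the day 3 median 0.64 and the day 3 count 7 (2.58% of expressed genes). DESeq2 called 2 genes; edgeR called between 0 and 0 genes with 1 caerulein library left out, and 0 with the authors' factors, without a filter and for a trend over day. The cause of these shifts was not tested. No paired analysis was possible because there is 1 library per day. Precision is limited by counting for Orc1, Pole and Fen1, and by 1 pool per day throughout.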
